A study of Homo sapiens with 9 samples.

Results

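Epithelial junction and keratin genes are the 50 genes described here, out of 23619 gene symbols quantified in RNA-seq of RKO cells. They were taken from a fixed list of names: claudins, the other membrane and plaque proteins of the tight junction, desmosomal proteins and plakins, keratins, and a small set of epithelial polarity, surface and regulatory genes. All 50 were present in the files, and 35 of them had enough counts to enter the tests. RKO is an established human colorectal carcinoma line. DIP2C, the gene targeted in these cells, had part of a coding exon deleted with a recombinant adeno-associated virus, and the selection cassette was then removed with Cre.

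There were 9 libraries, each from cells grown for 48 h. Untargeted parental RKO gave 2 samples, parental 1 and parental 2. Homozygous targeting (DIP2C-/-) was represented by 2 clones, E3 and C10. Heterozygous targeting (DIP2C+/-) was represented by 5 clones, named A6-C9, A9-A12, F6-A7, G1-A5 and H9-A4. The study's text describes fewer heterozygous clones than the labels list and does not tie them to these names, so whether all 5 arose independently is not known. Every targeted line was grown from a single cell and had been through virus infection, drug selection and Cre, whereas the parental cells had not, and there was no clone that went through these steps with DIP2C intact. Differences between clones and parental cells therefore cannot be told apart from those of cloning and selection. The study's methods derive the homozygous clones from a heterozygous one, so E3 and C10 are not independent of each other. Nothing in the labels says that the parental samples came from separate cultures, so the p-values measure only the spread between these samples.

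Tight junctions seal the space between neighbouring epithelial cells. Claudins form the sealing and pore-forming strands, and the MARVEL-domain proteins occludin, MARVELD2 and MARVELD3 lie beside them in the membrane. The zonula occludens (TJP) and cingulin proteins form a plaque that ties the strands to actin. Desmosomes are the junctions that anchor keratin filaments, through cadherins (desmogleins and desmocollins), plakophilins and desmoplakin. Keratins assemble from a type I and a type II partner, and simple epithelia such as the colon carry mainly KRT8 with KRT18, KRT19 and KRT20. Loss of junction and keratin expression is a textbook feature of epithelial-mesenchymal transition, in which repressors of the ZEB and SNAI families bind E-box motifs.

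Total counts were 14772593 to 21486483 per sample, so that 3 counts correspond to 0.14 to 0.203 counts per 1000000 counts (CPM), taken as the limit of detection for counting error only. DIP2C itself was at 61.0 and 70.9 CPM in the parental samples and at 17.4 and 22.8 CPM in E3 and C10. In the heterozygous clones DIP2C was at 47.0, 56.3, 38.9, 41.7 and 33.6 CPM, in an order kept throughout: first F6-A7, then H9-A4, then A9-A12, then G1-A5, then A6-C9. All 7 clones were below both parental samples, and the library labelled H9-A4 was the closest to them. In DIP2C-/- clones the log2 fold change of DIP2C was -1.71, with an edgeR adjusted p of 0.0998 with all 9 samples and 0.00103 without H9-A4. These counts cover the whole gene and not the deleted stretch, so they do not check the genotype. H9-A4 also stood apart from the other 6 clones in the genes described here, and results are therefore given with all 9 samples and without H9-A4. The fit without H9-A4 was singled out with values of these same genes known. Its p-values can therefore be too small, and they describe only the remaining samples. The colonic transcription factor CDX2 was at 15.6 to 19.8 CPM, whereas 6 of 9 colonic epithelial markers, KRT20, CDX1, VIL1, LGALS4, CDH17 and GPA33, were below 1 CPM in every sample. Summed markers of fibroblasts (7 genes) were 5.76 to 7.57 CPM in the parental samples and 4.16 to 7.96 CPM in the clones, of blood cells (PTPRC) at most 0.822 CPM, and of endothelium (PECAM1 and CDH5) at most 1.94 CPM.

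The promoters of 4 members are shown because they contrast a claudin and a plaque protein that were lower in most clones (CLDN3 and CGN), a plaque protein that was lower in every clone (TJP3) and a plaque protein whose level hardly differed (TJP1). Each runs from 250 bases before to 50 bases after a RefSeq transcription start in GRCh38.p14, 5′ to 3′ on the strand of the gene, and capitals mark the E-box CAGGTG or its complement CACCTG. The CLDN3 window lies at chr7:73770221-73770520 on the minus strand, CGN at chr1:151511137-151511436 on the plus strand, TJP3 at chr19:3721487-3721786 on the plus strand and TJP1 at chr15:29969000-29969299 on the minus strand. TJP3 and TJP1 have further starts in the table, and the windows printed are those that hold an E-box.
CLDN3: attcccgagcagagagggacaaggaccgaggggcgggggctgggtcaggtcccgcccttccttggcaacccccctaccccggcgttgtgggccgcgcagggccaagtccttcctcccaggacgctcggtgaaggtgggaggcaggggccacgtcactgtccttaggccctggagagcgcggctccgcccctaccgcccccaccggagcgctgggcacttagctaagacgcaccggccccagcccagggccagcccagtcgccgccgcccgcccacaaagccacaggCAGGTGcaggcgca
CGN: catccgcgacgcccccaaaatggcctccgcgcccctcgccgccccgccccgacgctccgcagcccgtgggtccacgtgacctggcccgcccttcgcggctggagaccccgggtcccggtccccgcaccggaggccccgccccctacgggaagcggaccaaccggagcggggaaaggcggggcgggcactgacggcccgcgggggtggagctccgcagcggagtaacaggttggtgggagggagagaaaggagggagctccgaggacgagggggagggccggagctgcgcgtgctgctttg
TJP3: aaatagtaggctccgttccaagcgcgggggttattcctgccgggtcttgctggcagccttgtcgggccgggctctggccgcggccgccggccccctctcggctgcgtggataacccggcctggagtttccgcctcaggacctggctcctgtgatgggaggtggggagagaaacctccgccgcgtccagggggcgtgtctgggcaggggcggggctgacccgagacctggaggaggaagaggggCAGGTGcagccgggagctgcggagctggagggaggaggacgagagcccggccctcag
TJP1: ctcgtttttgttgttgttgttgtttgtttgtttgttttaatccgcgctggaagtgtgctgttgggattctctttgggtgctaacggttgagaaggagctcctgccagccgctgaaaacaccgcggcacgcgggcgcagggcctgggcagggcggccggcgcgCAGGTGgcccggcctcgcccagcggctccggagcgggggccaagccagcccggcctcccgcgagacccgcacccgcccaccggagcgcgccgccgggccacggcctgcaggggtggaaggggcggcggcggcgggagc
The CLDN3 window held 1 E-box, beginning 37 bases into the transcript, and 24 CpG dinucleotides. CGN held 0 E-boxes and 37 CpG dinucleotides. TJP3 held 1 E-box, beginning 7 bases before the start, and TJP1 held 1, beginning 88 bases before it. The table had 41 promoters for 29 of the members, and 17 of these (41.5%) held the E-box on either strand, against 20.6% of all 35116 promoters in the table. It had none for MARVELD3, PKP2, PKP3, KRT80 or LLGL2, which were lower in most clones, so the share says nothing about them. The share covers every member with a promoter, whatever its level. The members' promoters had a median of 21 CpG dinucleotides and all promoters a median of 14. CLDN7 and CRB3 each had a window with 5 E-boxes. The Grainyhead motif aaccggtt, searched on both strands and sharing no overlap with the E-box, was in 0 of the 41 windows and in 0.134% of all promoters. These are matches of letters in 300 bases, not sites of binding.

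The clones other than H9-A4 had lower levels of a small group of members that spanned the tight junction, the desmosome, the keratins and a polarity protein. In the comparison of all clones with parental RKO without H9-A4, 7 members passed the test and all 7 were lower: CLDN3, MARVELD3, CGN, PKP2, PKP3, KRT80 and LLGL2. MARVELD3 fell by 4.24 and KRT80 fell by 4.74 on the log2 scale, whereas PKP2 and LLGL2 each fell by 0.52. No member passed as higher. CLDN3 was high enough to be tested in this fit only in the parental samples, so it could only be called as lower. For MARVELD3 the clones other than H9-A4 reached at most 0.581 CPM, so its place in the test also rested largely on the parental samples. These were calls over 15390 genes, of which 4.47% were lower and 4.48% higher. The same edgeR test on all 9 samples passed none of the 35 tested members in any comparison.

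**Figure D1:**
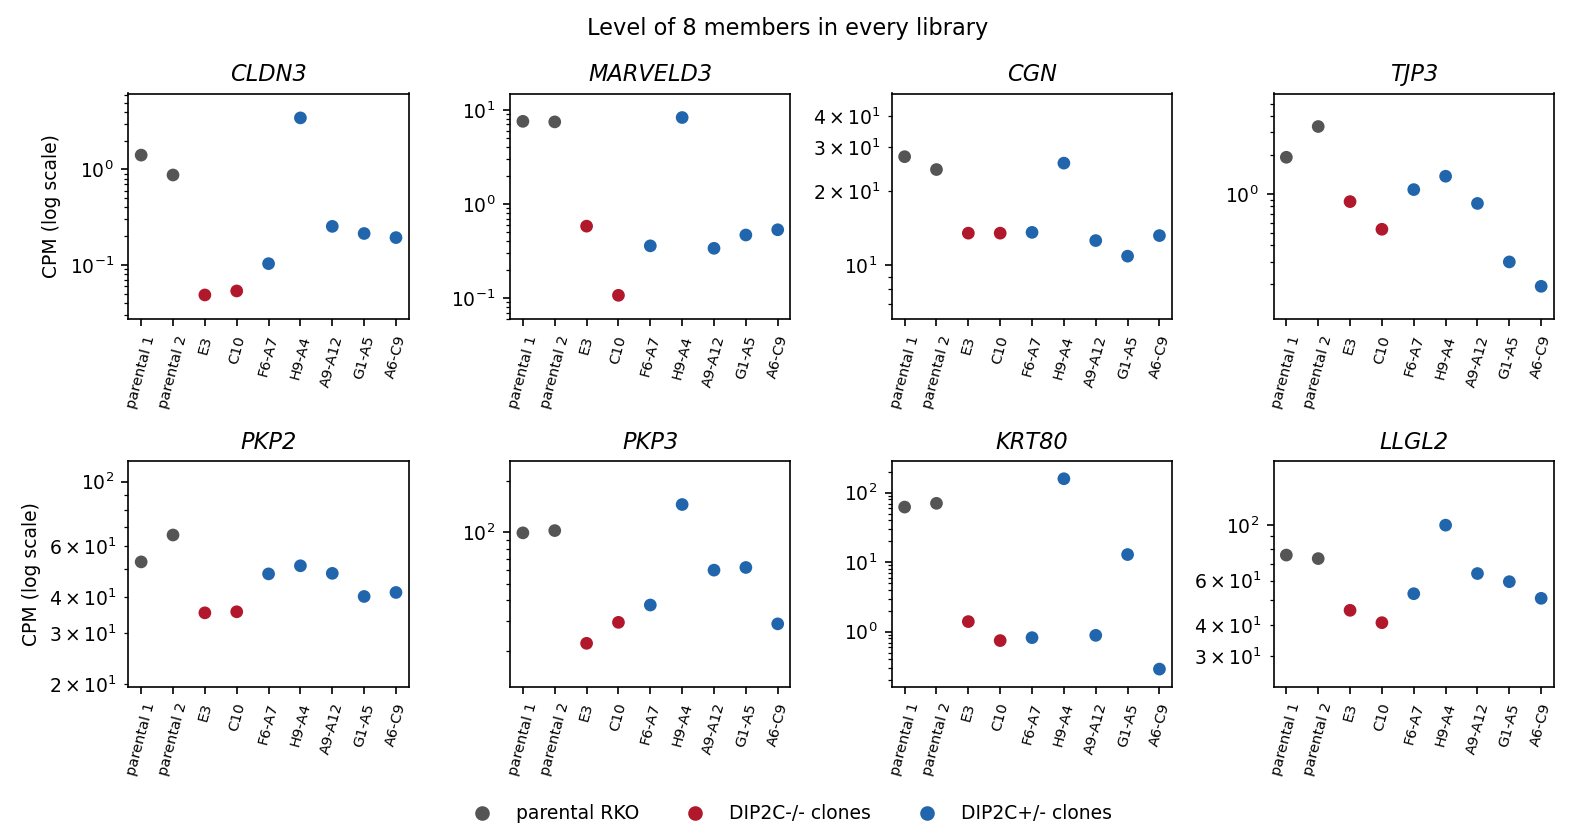
Level of 8 members in each library in CPM on a log axis, 1 point a library, with parental RKO in grey, DIP2C-/- clones in red and DIP2C+/- clones in blue. H9-A4 lies at or above the parental level for CLDN3, MARVELD3, PKP3, KRT80 and LLGL2, while the other 6 clones lie below both parental samples in all 8 genes.

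Claudins determine which ions and solutes pass between epithelial cells. The files held 10 members of the family, of which only CLDN12 and CLDN15 were above 9 CPM in every sample. CLDN3, a sealing claudin of intestinal epithelium (hg19 chr7:73183327-73184600, minus strand), was at 1.41 and 0.873 CPM in the parental samples and at 0.0484 and 0.0533 CPM in E3 and C10. In the heterozygous clones CLDN3 was at 0.103, 3.46, 0.253, 0.213 and 0.193 CPM. All clones but H9-A4 were below both parental samples, and H9-A4 was above both. E3 and C10 had 1 read each, so that the parental samples had 48 reads against 2, a ratio of 23.2 with a 95% exact interval of 6.07 to 197 for counting error only. Without H9-A4, CLDN3 fell by 4.18 (SE 0.83) in DIP2C-/- clones and fell by 2.50 (SE 0.55) in DIP2C+/- clones on the log2 scale, with adjusted p of 0.0162 and 0.0193 in edgeR's quasi-likelihood test after Benjamini-Hochberg adjustment. With all 9 samples the adjusted p for these comparisons in the same test was 0.384 and 0.909. These levels were near the limit of detection in the clones.

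CLDN12, a claudin that lacks the usual anchor for plaque proteins, was higher in most clones. It was at 39.5 and 42.7 CPM in the parental samples, 61.0 and 52.4 CPM in E3 and C10, and 61.5, 35.4, 53.8, 84.2 and 51.8 CPM in the heterozygous clones. The 6 clones other than H9-A4 were above both parental samples and H9-A4 was below both. The log2 fold change over all clones without H9-A4 was 0.56 (SE 0.19), and the adjusted p of 0.0963 by edgeR's quasi-likelihood test did not pass. With all 9 samples it was 0.48 (SE 0.26), with an edgeR adjusted p of 0.449. CLDN15, a pore-forming claudin of the gut, was at 9.98 and 9.78 CPM in the parental samples and between 9.44 and 12.9 CPM in the clones. CLDN2, another pore-forming claudin, was at 0.213 and 0.757 CPM in the parental samples, 1.70 and 0.640 CPM in E3 and C10, and 1.49, 0.684, 0.929, 0.298 and 0.242 CPM in the heterozygous clones. For CLDN2 the parental samples themselves differed by more than 2-fold, and the clones lay on both sides of them. CLDN1, CLDN4, CLDN6, CLDN7, CLDN11 and CLDN23 had too few counts to be tested and were below 1 CPM in every sample. Because CLDN12 made up most of the counts, the sum over the 10 claudins was 52.2 and 55.5 CPM in the parental samples and 50.4 CPM in H9-A4 but 65.3 to 96.4 CPM in the other 6 clones.

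The MARVEL-domain proteins occludin, MARVELD2 and MARVELD3 sit beside claudins in the tight junction membrane. MARVELD3 had the lowest edgeR adjusted p of the members over all clones against parental RKO without H9-A4. MARVELD3 (hg19 chr16:71660064-71676017, plus strand) was at 7.55 and 7.45 CPM in the parental samples, 0.581 and 0.107 CPM in E3 and C10, and 0.359, 8.29, 0.338, 0.468 and 0.532 CPM in the heterozygous clones. H9-A4 was just above the parental samples. The highest of the other 6 clones, E3, was at 0.581 CPM. E3 and C10 had 12 and 2 reads, a total of 14 against 305 in the parental samples. The ratio was 21.0, with a 95% exact interval of 12.3 to 38.9 that covers counting error only and not the spread between clones. Without H9-A4, MARVELD3 fell by 4.48 (SE 0.69) in DIP2C-/- clones and fell by 4.12 (SE 0.51) in DIP2C+/- clones on the log2 scale, with edgeR adjusted p of 0.00429 and 0.000647. With H9-A4 kept, the change in DIP2C-/- clones was -6.08 on C10 alone and -3.72 on E3 alone. The difference between the heterozygous and homozygous clones was 0.36 (SE 0.63). Kept in, H9-A4 brought the change over all clones to -2.65 (SE 1.03) on the log2 scale (edgeR adjusted p = 0.327).

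Occludin, the founding member of the family and a regulator of paracellular permeability, did not pass. OCLN was at 53.1 and 47.8 CPM in the parental samples, 34.7 and 38.0 CPM in E3 and C10, and 38.6, 39.5, 54.3, 48.5 and 35.3 CPM in the heterozygous clones. E3 and C10 were both below the parental samples, and A9-A12 and G1-A5 overlapped with them. MARVELD2 (tricellulin), which seals the corners where 3 cells meet, was at 20.6 and 15.3 CPM in the parental samples, 10.8 and 13.0 CPM in E3 and C10, and 8.52, 15.4, 12.2, 17 and 11 CPM in the heterozygous clones. MARVELD1 was at 39.6 and 33.7 CPM in the parental samples, 44.8 and 50.4 CPM in E3 and C10, and 40.6, 36.7, 63.3, 52.8 and 54.9 CPM in the heterozygous clones. The 6 clones other than H9-A4 were above both parental samples for MARVELD1, with a log2 fold change of 0.48 (SE 0.17) and an edgeR adjusted p of 0.122, against 0.42 (SE 0.21) and 0.405 with all 9 samples. The junctional adhesion molecule F11R was at 19.2 and 16.3 CPM in the parental samples and between 13.9 and 17.1 CPM in the clones, the narrowest spread between clones of any tested member (SD 0.11 on the log2 scale).

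Of the plaque proteins, cingulin was lower in the 6 clones other than H9-A4, and TJP1 was at a level on both sides of the parental samples. CGN, which links the plaque to actomyosin (hg19 chr1:151482986-151511168, plus strand), was at 27.5 and 24.4 CPM in the parental samples and at 13.5 CPM in both E3 and C10. In the heterozygous clones CGN was at 13.6, 25.9, 12.6, 10.9 and 13.2 CPM. H9-A4 lay between the parental samples, and the other 6 clones were within a narrow band below them. Without H9-A4, CGN fell by 0.94 (SE 0.21) in DIP2C-/- clones and fell by 1.05 (SE 0.17) in DIP2C+/- clones on the log2 scale, with edgeR adjusted p of 0.0259 and 0.00404. The edgeR adjusted p was 0.358 and 0.399 when H9-A4 was kept.

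TJP1 (ZO-1), the scaffold that binds claudins and occludin, was the most abundant tight junction member per kilobase of exon. It was at 249.5 and 230.9 CPM in the parental samples, 240.7 and 250.4 CPM in E3 and C10, and 213.2, 209.7, 206.5, 254.1 and 262.5 CPM in the heterozygous clones. The clones lay on both sides of the parental samples, and their SD was 0.15 on the log2 scale. TJP3 (ZO-3), a scaffold found mainly in epithelia, was at 1.92 and 3.32 CPM in the parental samples, 0.872 and 0.533 CPM in E3 and C10, and 1.08, 1.37, 0.844, 0.298 and 0.193 CPM in the heterozygous clones. All 7 clones were below both parental samples for TJP3, H9-A4 included. The log2 fold change of TJP3 over all clones was -1.82 (SE 0.59) with all 9 samples and -2.04 (SE 0.57) without H9-A4, and the edgeR adjusted p of 0.299 and 0.0508 did not pass. TJP3 was called as lower without H9-A4 by DESeq2, in DIP2C+/- clones and over all clones, and by edgeR over all clones when these formed 1 group. CGNL1, the paralogue of cingulin, was at 1.49 and 0.989 CPM in the parental samples and between 0.639 and 1.64 CPM in the clones.

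In the desmosome, the plakophilins PKP2 and PKP3 were lower in most clones, and the levels of the cadherins and desmoplakin overlapped with the parental ones. PKP3, the plakophilin of simple and stratified epithelia (hg19 chr11:392614-404908, plus strand), was at 99.1 and 102.2 CPM in the parental samples, 22.3 and 29.6 CPM in E3 and C10, and 37.4, 145.3, 59.9, 62.1 and 29.0 CPM in the heterozygous clones. H9-A4 was above both parental samples and the other 6 clones were below both, A9-A12 and G1-A5 the least. Without H9-A4, PKP3 fell by 1.95 (SE 0.33) in DIP2C-/- clones and fell by 1.10 (SE 0.27) in DIP2C+/- clones on the log2 scale, with edgeR adjusted p of 0.00744 and 0.0293. With all 9 samples the log2 fold changes were -1.95 (SE 0.61) and -0.59 (SE 0.48), with edgeR adjusted p of 0.318 and 0.663.

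PKP2, a plakophilin shared by epithelia and heart, was lower in every clone, though by less. PKP2 (hg19 chr12:32943679-33049732, minus strand) was at 52.9 and 65.5 CPM in the parental samples, 35.3 and 35.6 CPM in E3 and C10, and 48.1, 51.3, 48.3, 40.2 and 41.5 CPM in the heterozygous clones. H9-A4 was the highest clone and lay just under parental 1. PKP2 fell by 0.74 (SE 0.17) in DIP2C-/- clones without H9-A4, with an edgeR adjusted p of 0.0366, and with all 9 samples it gave -0.74 (SE 0.19) on the log2 scale and an edgeR adjusted p of 0.295. In DIP2C+/- clones the log2 fold change was -0.41 (SE 0.15) without H9-A4 and did not pass (edgeR adjusted p = 0.125), as with all 9 samples, where it was -0.37 (SE 0.15) (edgeR adjusted p = 0.411). PKP4, which also associates with adherens junctions, was at 150.1 and 142.1 CPM in the parental samples, 140.7 and 129.5 CPM in E3 and C10, and 160.7, 147.7, 115.1, 111.4 and 143.4 CPM in the heterozygous clones. PKP4 overlapped with the parental samples, and PKP1, the plakophilin of stratified epithelia, was below 1 CPM in every sample. It was at 0.384 and 0.466 CPM in the parental samples, 0.920 and 0.373 CPM in E3 and C10, and 0.924, 0.443, 0.422, 0.255 and 0.483 CPM in the heterozygous clones. Summed over the 4 plakophilins, the level was 302.5 and 310.3 CPM in the parental samples, 344.7 CPM in H9-A4 and 195.0 to 247.1 CPM in the other 6 clones.

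DSG2, the desmoglein of simple epithelia, was at 112.9 and 94.6 CPM in the parental samples, 99.0 and 86.0 CPM in E3 and C10, and 96.0, 128.7, 104.8, 150.6 and 96.2 CPM in the heterozygous clones. DSP (desmoplakin), which attaches keratin filaments to the plaque, was at 61.5 and 81.0 CPM in the parental samples, 43.5 and 68.0 CPM in E3 and C10, and 56.3, 54.2, 63.2, 59.0 and 67.1 CPM in the heterozygous clones. For both genes the groups overlapped. The desmocollins, the other desmosomal cadherins, were at low levels. DSC2 was at 0.213 and 0.175 CPM in the parental samples, 0.726 and 0.320 CPM in E3 and C10, and 0.257, 0.564, 0.338, 0.255 and 0.145 CPM in the heterozygous clones. DSC3 was at 0.896 and 0.698 CPM in the parental samples, 1.26 and 0.213 CPM in E3 and C10, and 1.08, 0.523, 0.380, 0.298 and 0.435 CPM in the heterozygous clones. For DSC2, 6 clones were above both parental samples and A6-C9 was below both. DSC2 was high enough to be tested only in E3 and H9-A4, so a comparison with parental RKO was bound to lean higher. For DSC3, 5 clones were below both parental samples and 2 were above both. JUP (plakoglobin), a plaque protein of desmosomes and adherens junctions, had too few counts to be tested. Among the plakins, EVPL (envoplakin) was at 56.2 and 65.8 CPM in the parental samples, 55.1 and 62.2 CPM in E3 and C10, and 75.3, 58.3, 66.5, 55.9 and 55.8 CPM in the heterozygous clones. PPL (periplakin), its partner, was at 0.853 and 2.15 CPM in the parental samples, 2.13 and 1.01 CPM in E3 and C10, and 1.90, 3.50, 1.10, 1.66 and 1.01 CPM in the heterozygous clones. H9-A4 was the highest sample for PPL, and the parental samples differed from each other by more than 2-fold.

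KRT80 showed the largest fold change among the keratins and the widest spread between clones of any tested member (SD 3.03 on the log2 scale). It is a type II keratin (hg19 chr12:52562780-52585798, minus strand) and was at 62.2 and 70.4 CPM in the parental samples, 1.40 and 0.746 CPM in E3 and C10, and 0.822, 159.0, 0.887, 12.9 and 0.290 CPM in the heterozygous clones. H9-A4 was above both parental samples, G1-A5 was intermediate, and the other 5 clones were at most 1.40 CPM. Without H9-A4, KRT80 fell by 5.97 (SE 1.41) in DIP2C-/- clones and fell by 4.12 (SE 0.94) in DIP2C+/- clones on the log2 scale, with edgeR adjusted p of 0.0369 and 0.0222. With all 9 samples the log2 fold changes were -5.97 (SE 2.64) and -0.93 (SE 1.61), with edgeR adjusted p of 0.385 and 0.866.

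KRT8 and KRT18, the type II and type I pair of simple epithelia, were lower in the homozygous clones without passing in edgeR's test on all 9 samples or without H9-A4. KRT18 was the most abundant member per kilobase of exon, with a mean of 62.8 CPM per kb against 20.8 for TJP1, 17.2 for PKP3 and 2.2 for KRT8. KRT18 was at 207.9 and 265.1 CPM in the parental samples, 120.9 and 155.2 CPM in E3 and C10, and 174.0, 170.0, 293.4, 197.7 and 149.4 CPM in the heterozygous clones. E3 and C10 were below both parental samples, and A9-A12 was above both. KRT8 was at 20.8 and 21.5 CPM in the parental samples, 11.5 and 11.6 CPM in E3 and C10, and 10.4, 7.01, 20.7, 16.0 and 16.6 CPM in the heterozygous clones. All 7 clones were below both parental samples for KRT8, A9-A12 by the least and H9-A4 by the most, the reverse of its place for KRT80. In DIP2C-/- clones without H9-A4 the log2 fold change was -0.87 (SE 0.28) for KRT8 and -0.78 (SE 0.28) for KRT18, with edgeR adjusted p of 0.118 and 0.156. DESeq2 without H9-A4 did call KRT8 as lower there. Kept in the fit, H9-A4 left log2 fold changes of -0.87 (SE 0.42) for KRT8 and -0.78 (SE 0.29) for KRT18, with edgeR adjusted p of 0.413 and 0.354. The gene models of KRT8 and KRT18 overlap on opposite strands and both have processed copies elsewhere, and whether the authors counted by strand is not stated, so reads could be shared between them.

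KRT7, a type II keratin of ductal epithelia, was at 8.10 and 16.3 CPM in the parental samples, 20.6 and 10.4 CPM in E3 and C10, and 26.9, 15.3, 11.7, 17.2 and 15.0 CPM in the heterozygous clones. The groups overlapped for KRT7. KRT81, a hair-type keratin that overlaps KRT86 and is nearly identical to it, was at 1.15 and 0.873 CPM in the parental samples, 0.145 and 0.0533 CPM in E3 and C10, and 0.103, 0.523, 0.549, 0.809 and 0.193 CPM in the heterozygous clones. All 7 clones were below both parental samples for KRT81. E3 and C10 had 4 reads in all against 42 in the parental samples. The ratio was 10.1, with a 95% exact interval of 3.68 to 38.9 for counting error only. KRT81 had a log2 fold change of -3.45 (SE 0.95) in DIP2C-/- clones with all 9 samples and -3.45 (SE 1.01) without H9-A4, and edgeR's adjusted p of 0.313 and 0.0842 did not pass. KRT19, KRT20, KRT23 and KRT86 were not tested for want of counts. Summed over the 9 keratins, the level was 301.1 and 374.7 CPM in the parental samples, 155.5 and 178.6 CPM in E3 and C10, and 212.9, 352.7, 327.6, 245.0 and 181.9 CPM in the heterozygous clones.

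**Figure D2:**
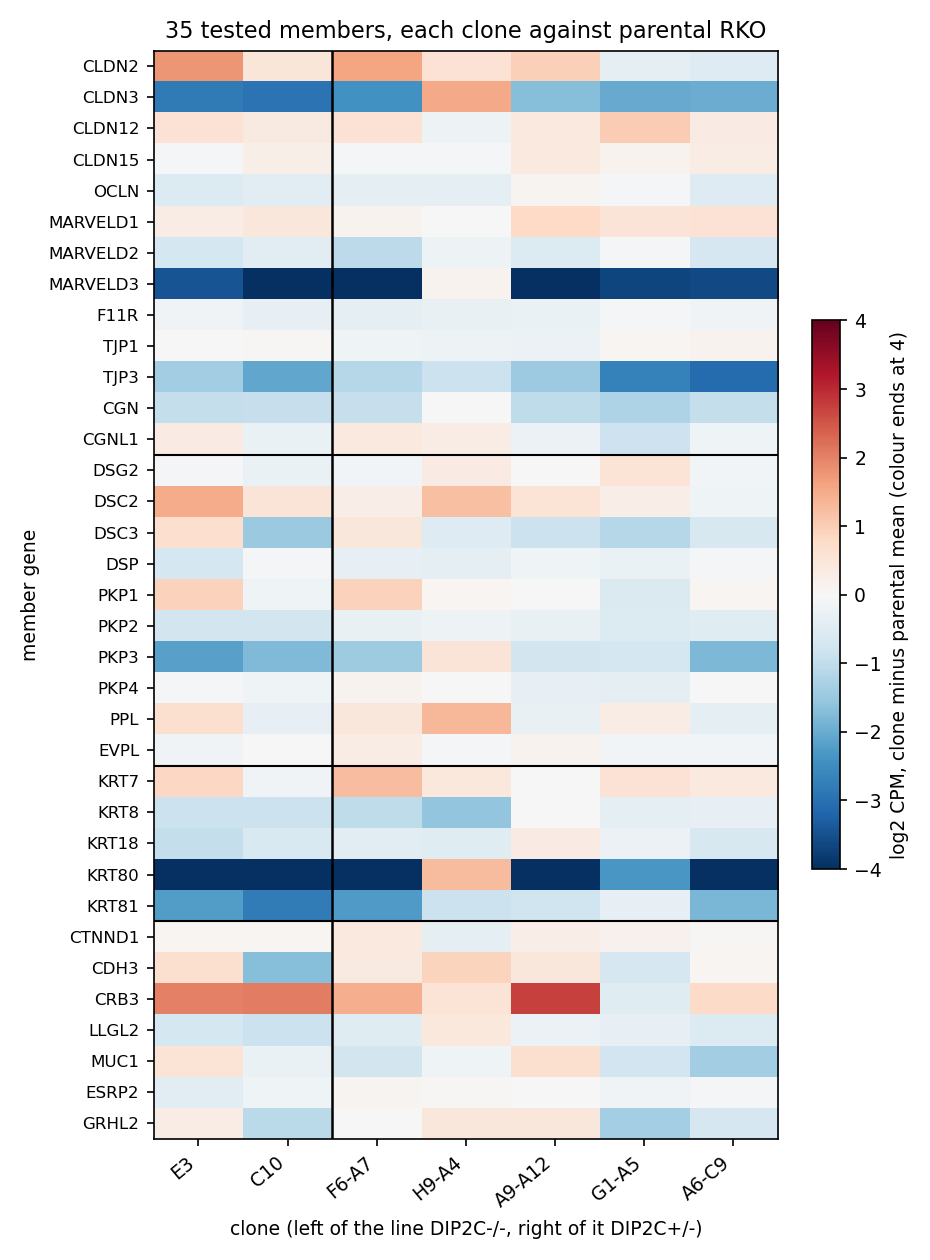
Difference on log2 CPM between each of the 7 clones and the mean of the parental samples for the 35 tested members. Blue marks lower and red marks higher. Rows are grouped from top to bottom into tight junction and MARVEL-domain, desmosome and plakin, keratin, and polarity, surface and regulatory genes. CLDN3, MARVELD3 and KRT80 are blue in every clone but H9-A4, and most other rows are pale.

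Of the remaining members, the basolateral polarity protein LLGL2 was lower in the 6 clones other than H9-A4. LLGL2 (hg19 chr17:73521161-73571290, plus strand) was at 75.8 and 73.4 CPM in the parental samples, 45.7 and 40.8 CPM in E3 and C10, and 53.2, 99.7, 64.0, 59.4 and 51.0 CPM in the heterozygous clones. E3 and C10 were the lowest samples and H9-A4 was the highest. LLGL2 fell by 0.79 (SE 0.16) in DIP2C-/- clones without H9-A4, with an edgeR adjusted p of 0.0192, and its log2 fold change in DIP2C+/- clones was -0.39 (SE 0.14) with an edgeR adjusted p of 0.118. Kept in the fit, H9-A4 left -0.79 (SE 0.28) and -0.19 (SE 0.23) for these comparisons, with edgeR adjusted p of 0.344 and 0.799. CRB3, an apical polarity protein, was listed at 0 in parental 1 and G1-A5. It was at 0.116 CPM in parental 2, 0.484 and 0.533 CPM in E3 and C10, and 0.308, 0.121, 0.929 and 0.145 CPM in F6-A7, H9-A4, A9-A12 and A6-C9. E3 and C10 had 20 reads against 2 in the parental samples, a ratio of 10.4. Its 95% exact interval of 2.52 to 91.4 covers counting error only. CRB3 was high enough to be tested only in some clones, so a comparison with parental RKO was bound to lean higher. In DIP2C-/- clones the edgeR adjusted p of CRB3 was 0.429 with all 9 samples and 0.308 without H9-A4.

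CTNND1 (p120 catenin), which stabilises cadherins at the membrane, was at 83.4 and 111.9 CPM in the parental samples, 102.6 and 102.9 CPM in E3 and C10, and 126.2, 73.6, 117.7, 108.4 and 99.8 CPM in the heterozygous clones. ESRP2, an epithelial splicing factor, was at 80.7 and 81.1 CPM in the parental samples, 59.0 and 71.9 CPM in E3 and C10, and 86.8, 83.1, 79.2, 74.1 and 78.4 CPM in the heterozygous clones. For ESRP2 the homozygous clones were the lowest samples, and the groups overlapped for CTNND1. CDH3 (P-cadherin) was between 0.213 and 1.81 CPM over the 9 samples and GRHL2, an activator of epithelial genes, between 0.170 and 0.853 CPM. MUC1, a surface mucin, was at 0.469 and 0.698 CPM in the parental samples, 0.920 and 0.480 CPM in E3 and C10, and 0.308, 0.523, 0.971, 0.298 and 0.145 CPM in the heterozygous clones. ESRP1, OVOL1, ELF3 and RAB25, all regulators or trafficking factors of epithelial cells, were not tested. In all, 20 of the 50 members were below 1 CPM in every sample, parental RKO included, and the 15 not tested reached at most 0.757 CPM. Among these are the textbook colonic members CLDN4, CLDN7, KRT19, KRT20 and ESRP1. In bulk libraries, fewer cells that express a gene and less RNA per cell cannot be told apart.

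The tests over the whole table put these differences against the background of all genes. With all 9 samples, edgeR's quasi-likelihood test with Benjamini-Hochberg adjustment called 0 of 35 members in DIP2C-/- clones against parental RKO, where 0.00644% of 15532 genes were called. It called 0 members in DIP2C+/- clones (0.0966% of genes), 0 over all clones (0.18%) and 0 between DIP2C+/- and DIP2C-/- clones (0.0% of genes). At an unadjusted p under 0.05 the same fit gave 10 members in DIP2C-/- clones (12.7% of genes), 3 in DIP2C+/- clones (11.6%), 5 over all clones (13.4%) and 5 between the genotypes (5.57%). The 10 members were CLDN3, MARVELD3, TJP3, CGN, PKP2, PKP3, KRT18, KRT80, KRT81 and LLGL2, and each was lower. For CLDN3 this direction was set by entry, which came through the parental samples and H9-A4. DESeq2's Wald test with all 9 samples called PKP2 as lower in DIP2C-/- clones (1 of 24 members with an adjusted p, 2.26% of genes) and no member in DIP2C+/- clones (0 of 31, 1.31%), over all clones (0 of 26, 2.28%) or between the genotypes (0 of 20, 0.0578%). KRT80 and MARVELD3 were without an adjusted p in every comparison by DESeq2 with all 9 samples.

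Without H9-A4 the common biological coefficient of variation was 0.242 instead of 0.298, over 15390 genes. DIP2C-/- clones then had 7 of 34 members lower, where 2.44% of genes were called lower, and 0 higher, where 2.32% were. DIP2C+/- clones had 5 members lower (3.58% of genes) and 0 higher (4.37%), namely CLDN3, MARVELD3, CGN, PKP3 and KRT80. All clones together had 7 lower (4.47%) and 0 higher (4.48%). Each of these counts of lower members includes CLDN3, which entered the test only through the parental samples. The 5 members called in DIP2C+/- clones were among the 7 called in DIP2C-/- clones, and these comparisons share their parental samples. A fit of only E3, C10 and the parental samples leaves H9-A4 out by construction. It called 10 of 32 members as lower (6.82% of genes) and 0 as higher (5.74%), with KRT8, KRT18 and KRT81 in addition to the 7. CLDN3, MARVELD3 and KRT81 entered that fit because of their parental levels, so their direction was set by entry.

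**Figure D3:**
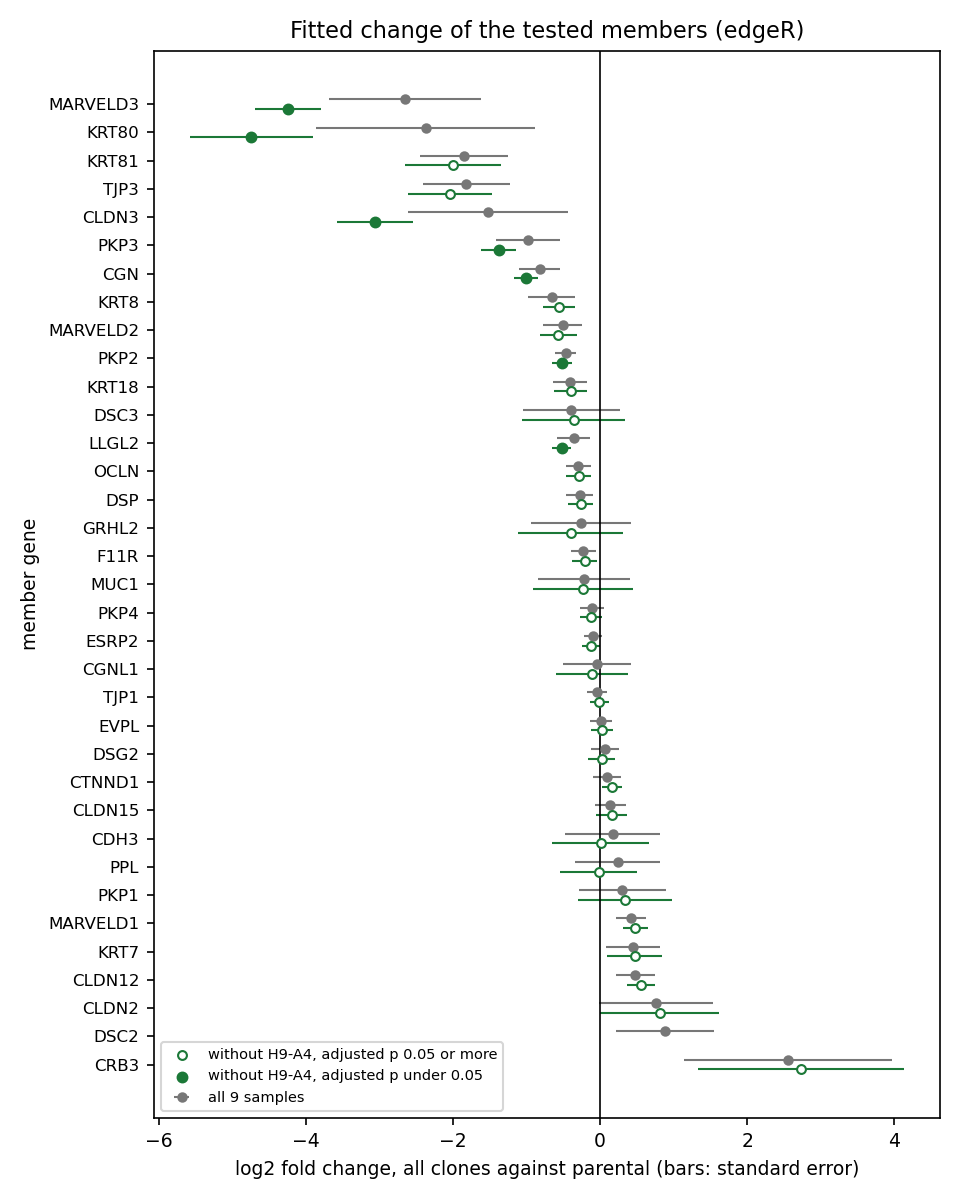
Log2 fold change of all clones against parental RKO with its standard error for the 35 tested members, ordered by the fit with all 9 samples (grey) and shown beside the fit without H9-A4 (green, filled where the adjusted p is under 0.05). The 7 filled points are all to the left of 0, and DSC2 has no green point since it was not tested in the smaller fit.

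Members whose clones did not overlap with the parental samples were also counted. All 7 clones were below both parental samples for 4 of 35 members, TJP3, PKP2, KRT8 and KRT81, against 5.56% of all genes tested. All 7 were above for 0 members, against 5.34%. The 6 clones other than H9-A4 were below both parental samples for 10 members, CLDN3, MARVELD3, TJP3, CGN, PKP2, PKP3, KRT8, KRT80, KRT81 and LLGL2, against 11.5% of genes. They were above both for CLDN12 and MARVELD1 (2 members, against 12.4%). The 10 include CLDN3, which was high enough to be tested only in the parental samples and H9-A4. CLDN3 could therefore only be lower in the other 6 clones, and the place of MARVELD3 in the test rested largely on the same samples.

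The clones differed in how many members were at least 2-fold from the parental mean, a count without a test since each clone is 1 library. In E3, 6 of 35 members were lower (5.47% of all genes tested) and 3 higher (8.95%), and in C10 these were 9 lower (6.23%) and 1 higher (5.7%). F6-A7 had 8 lower (5.97%) and 3 higher (8.13%). A9-A12 had 5 lower (6.55%) and 1 higher (7.33%), G1-A5 had 7 lower (7.96%) and 1 higher (4.01%), and A6-C9 had 7 lower (7.84%) and 0 higher (6.19%). CLDN3, MARVELD3, TJP3 and KRT80 were among the lower members in each of these 6 clones. PKP3 and KRT81 were among them in E3, C10, F6-A7 and A6-C9, and CGN in A9-A12 and G1-A5. In these 6 clones CLDN3 could only be counted as lower, since it entered the test through the parental samples and H9-A4. The place of MARVELD3 rested largely on the same samples.

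H9-A4 had the reverse balance, with 1 member lower, KRT8 (4.18% of genes), and 4 higher, CLDN3, DSC2, KRT80 and PPL (3.26%). Of these, DSC2 was high enough to be tested only in E3 and H9-A4, so its direction in H9-A4 was set by entry. For comparison, parental 2 differed from parental 1 by at least 2-fold in 2 members, CLDN2 and PPL, against 7.9% of genes. Over all 35 members the median log2 difference from the parental mean was between -0.34 and 0.01. It was -0.07 in E3, -0.33 in C10, -0.11 in F6-A7, 0.01 in H9-A4, -0.03 in A9-A12, -0.33 in G1-A5 and -0.34 in A6-C9, where the median of all genes tested was between -0.01 and 0.02. In C10, G1-A5 and A6-C9, 74.3% of members were below the parental mean, against 49.6% to 50.5% of all genes tested. In the other clones 45.7% (H9-A4) to 57.1% (E3 and F6-A7) of members were below it, against 48.4% to 49.7% of all genes. The largest differences were in a few genes.

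**Figure D4:**
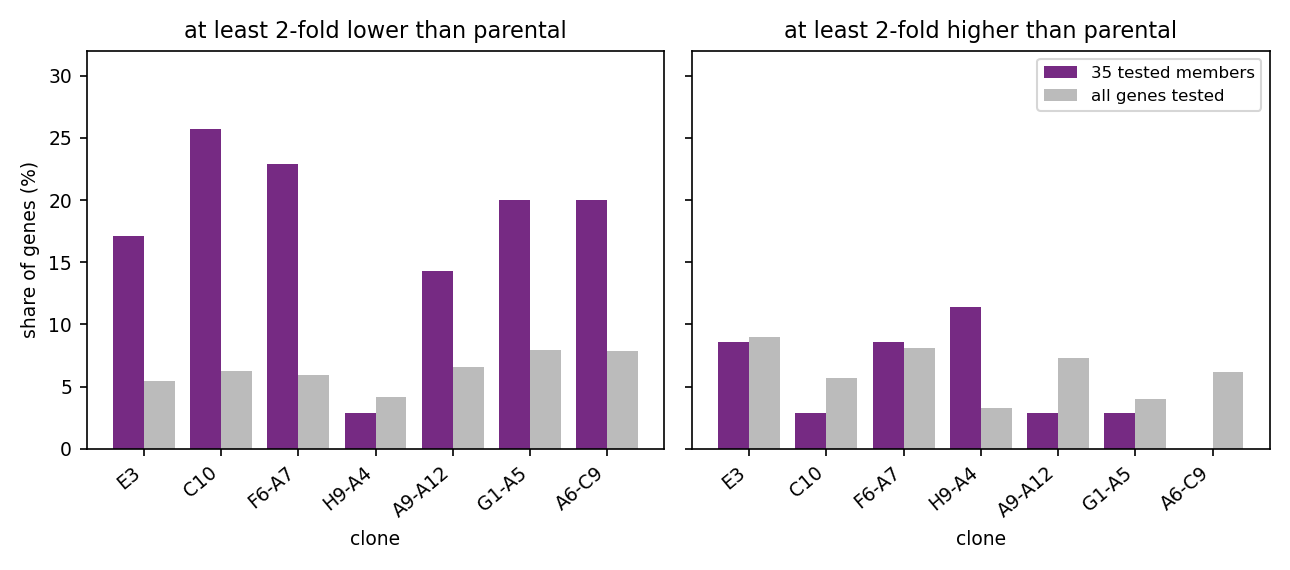
Share of the 35 tested members (purple) and of all genes tested (grey) that were at least 2-fold lower (left) or higher (right) than the parental mean in each clone, in percent. On the left the purple bar is above the grey one in every clone but H9-A4, where 1 member was lower. On the right it is well above the grey one in H9-A4, where 4 members were higher. Entry to the tests fixed the lower place of CLDN3 in the other clones and the higher place of DSC2 in H9-A4.

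Homozygous and heterozygous clones were compared directly to see whether the members followed the number of targeted alleles. The study derived its homozygous clones from a single heterozygous clone by further targeting. Allele number therefore cannot be told apart from that descent and the added targeting. Whether that clone is among the heterozygous libraries is not known. No member passed in edgeR's quasi-likelihood test, either with all 9 samples or without H9-A4 (0.0% of genes in either fit), and 4 of 34 members had an unadjusted p under 0.05 without H9-A4, against 7.1% of genes. Without H9-A4 the log2 difference of DIP2C+/- minus DIP2C-/- clones was 0.86 (SE 0.29) for PKP3, 0.40 (SE 0.14) for LLGL2, 0.56 (SE 0.25) for KRT18 and 2.17 (SE 0.97) for KRT81, each higher in the heterozygous clones, and the edgeR adjusted p ranged from 0.679 to 0.700. With H9-A4 included, larger differences stood for KRT80 (5.04, SE 2.44) and CLDN3 (3.72, SE 1.72), which fell to 1.85 (SE 1.25) and 1.68 (SE 0.84) without it. For CGN the difference was -0.11 (SE 0.18) without H9-A4.

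Other genes of the same structures, taken from lists of names, were examined in the same fits. None of them was called with all 9 samples. Tight junction genes outside the members, 18 of which were tested, held genes that passed in either direction over all clones without H9-A4. INADL (PATJ), a scaffold of the Crumbs polarity complex, fell by 1.09 (SE 0.21) and AMOTL2 fell by 0.64 (SE 0.14) on the log2 scale, with edgeR adjusted p of 0.00829 and 0.0151. AMOTL1, a relative of AMOTL2, rose by 5.30 (SE 1.43), from 1.19 and 1.16 CPM in the parental samples to between 5.92 and 139.1 CPM in the 6 clones, with 0.765 CPM in H9-A4 (edgeR adjusted p = 0.0433).

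Of 21 tested adherens junction and polarity genes, 2 were lower and 1 was higher over all clones without H9-A4. Of all genes tested in that fit, 4.47% were called lower and 4.48% higher. DLG1 and MPP5, polarity scaffolds, were the lower ones: DLG1 fell by 0.69 (SE 0.13) and MPP5 fell by 0.70 (SE 0.15). PRKCI, the atypical protein kinase C of the Par complex, rose by 0.94 (SE 0.13) with an edgeR adjusted p of 0.00111, from 51.7 and 48.1 CPM in the parental samples to between 83.5 and 103.8 CPM in the 6 clones, while H9-A4 was at 39.2 CPM. None of 8 tested desmosome and plakin genes and none of 5 tested keratins outside the members was called, and 25 of these 30 keratins were below 1 CPM in every sample. The median log2 fold change over all clones without H9-A4 was -0.22 for the members, -0.39 for the other tight junction genes, 0.04 for the adherens junction and polarity genes and 0.18 for the desmosome and plakin genes.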

How the data were processed

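RNA from parental RKO cells and from DIP2C-targeted clones was sequenced on the Ion Proton system. The submitters' processing notes name TopHat2 2.0.4, Cufflinks 2.2.1 and the hg19 build. The authors deposited estimated counts for each gene, whose values fit a constant scaling per sample: 97.9% to 98.4% of low values (under 50 steps) were whole multiples of a step (within 0.02 of it) of 0.7109 to 1.1145. How the authors wrote these estimated counts, and whether strand was used, is not given in the sources used here. They were rounded for the tests. Scaling slightly misstates the counting error, so fits on values divided by the step were an alternative. The reads implied were 17134434 to 24863889 per sample, and arms of 2 samples limit every comparison.

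Genes kept by filterByExpr were normalised by TMM and fitted in edgeR 4.0.16 (R 4.3.3) with all 9 samples and 1 coefficient per group, and the quasi-likelihood F test was applied to each contrast. A gene was called at a Benjamini-Hochberg adjusted p under 0.05 over all genes tested. The contrast of all clones weighted each clone equally. Standard errors are the log2 fold change divided by the root of the F statistic. CPM are TMM-scaled, and differences of single clones used log2 CPM with a prior count of 2. The code was tested on simulated data. Same-group samples differed by more than sampling noise, so each library counted as 1 replicate. Alternatives were DESeq2 1.42.0, other size factors, filters, only the groups compared, and each sample left out. The labels name no batch. Gene positions are from GENCODE on GRCh37 and promoter sequences from RefSeq on GRCh38.p14. The members, the lists and the leaving out of H9-A4 were chosen with earlier results of these data known. Values in every sample are given for members called in any fit, for those at 20 CPM or more on average and for the 5 largest changes each way per contrast. A result that needs a withheld item is not reported here.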

Additional observations from a re-analysis of the deposited data

Results flagged for a closer look

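In 3 of the 35 tested members, 1 of the 5 DIP2C+/- clones stood far from the others, by the gap to the nearest clone as a share of the group's range on log2 CPM (limit 0.71). In each it was H9-A4, as the highest clone. The gap was 0.878 of the range for MARVELD3, where H9-A4 was at 8.29 CPM and the next clone at 0.532 CPM. For CLDN3 the gap was 0.821, with 3.46 CPM in H9-A4 and 0.253 CPM in the next clone. For CGN the gap was 0.747, with 25.9 CPM against 13.6 CPM. Chance flags about 1 in 20 such groups, and the genes of 1 library are not independent.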

How the results depend on the processing

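The counts of called members rested on whether H9-A4 was in the fit. With all 9 samples, other size factors, library size only, other filters and the values divided by the step left each count at 0. For DIP2C-/- clones DESeq2 gave 1 and the fit of only the groups compared gave 10, and leaving out 1 sample at a time gave 0 to 7. The corresponding range was 0 to 5 for DIP2C+/- clones and 0 to 7 for all clones, the upper value in each case without H9-A4. Without H9-A4 and A6-C9 the counts were 7, 4 and 6 in the same order. Alternatives chosen after seeing the data, all without H9-A4, gave in that order 7, 5 and 7 with library size only, 4, 2 and 4 with at least 10 counts in every sample (which leaves CLDN3, MARVELD3 and KRT80 untested), and 6, 5 and 7 with DESeq2, which gave no adjusted p for CLDN3 or KRT80, called CLDN12 as higher and TJP3 as lower in DIP2C+/- clones and over all clones, and called KRT8 as lower in DIP2C-/- clones. With only the groups compared they were 5 for DIP2C+/- clones and 6 for all clones. Of 674 alternatives for the log2 fold changes of single members, 575 kept the direction and side of the threshold and 0 reversed. The other 99 passed where the main test had not, 91 of them without H9-A4. Many of these members were chosen because they passed without H9-A4, so the 91 were largely set by that choice. The main test had called none of them, so no alternative could lose a call. Alternatives without an adjusted p were left out. The medians and 2-fold counts of single clones moved little under a prior count of 0.5 and other scaling. No paired analysis was possible because the groups share no replicate numbers in the labels. Depth limits CLDN3, MARVELD3, TJP3, KRT81 and CRB3, which were near 3 counts in some samples.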
